A study of Mus musculus with 9 samples.

Results

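The collagen genes were followed through RNA of mouse brain tissue taken 2 days after injection of a baculoviral vector, a gene carrier built from an insect virus. Every probe set whose only gene symbol in the platform annotation was a collagen chain (Col, a type number, a and a chain number) was taken, which gave 42 of the 18193 genes with a name on the array, through 82 of its 45101 probe sets. All 42 were found in the RefSeq gene table by Entrez identifier with the same symbol. The 9 arrays each held RNA of 1 mouse, 3 mice per group, and all mice were adult male immunocompetent BALB/c animals injected in the striatum of both hemispheres. The HS group received BV-HSVtk vector purified by high-speed centrifugation, and for the MC+HS group membrane chromatography was combined with that step, each at 100000000 viral particles in 10 µL per side. The mock group received virus-free Sf9 insect cell medium that had passed through the MC+HS purification. In HS against mock the vector and the purification therefore differ together and cannot be told apart. Every group had been injected, so the needle track is common to all, and a change of collagen RNA shared by all 3 groups could not be seen.

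Collagens are secreted or membrane proteins whose chains wind into a helix rich in glycine and hydroxyproline. Fibrillar collagens build the ropes of connective tissue, type IV collagen forms the mesh of basement membranes, and the other types link, coat or anchor those structures. In the healthy brain collagen is scarce outside the vessel walls and the meninges, where endothelial cells, mural cells and fibroblasts make it.

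The tables hold 1 linear signal per probe set and array. Values below are centred log2 signals, that is log2(signal + 16) with each array's median moved to a common value, and differences are on that scale. Median signals ranged from 147 to 263 intensity units between arrays. With no detection calls used here, a probe set counted as measured when it lay above the 40th percentile of its own array on at least 3 arrays, and 28257 probe sets for 13331 genes did. Where a gene had several, the probe set with the highest mean stood for it. A gene was called where the limma fit over all measured probe sets gave a Benjamini-Hochberg adjusted p under 0.05. Errors after ± are standard errors of a log2 difference unless named SD, with n = 3 per group where all 9 arrays are used.

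One array, HS replicate 1, was unlike the rest, so counts of calls and the differences of collagens from mock are given with and without it. Leaving it out changes the error of an MC+HS difference from mock but not the difference itself. The SD of its log2 signals was 1.54, against 2.17 to 2.39 elsewhere, and its median correlation with the other arrays was 0.757, against 0.956 to 0.979. The same could be seen within the collagens. Of the 34 collagen probe sets that were not measured, 31 were higher on HS replicate 1 than on the mean of HS replicates 2 and 3, by a median of 1.21. Of the 48 measured ones 17 were higher there, with a median difference of -0.21. For 13 collagen probe sets HS replicate 1 was the only array above the 40th percentile, which held for 1 on mock replicate 3 and 0 on the other arrays. Col10a1, a gene of hypertrophic cartilage, read 7.15 on HS replicate 1 and between 4.14 and 4.74 on the other 8 arrays. Of the cell markers, all 5 striatal neuron genes named on the array lay above the 40th percentile on all 9 arrays.

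Of the 82 collagen probe sets 48 were measured (58.5%), close to the 62.7% of all non-control probe sets, and they covered 31 of the 42 genes. By gene, 23 lay above the 40th percentile on all 9 arrays, 8 passed on some arrays, and 11 did not pass. Among the 11 fibrillar genes, Col1a2, Col3a1, Col5a1, Col5a2, Col5a3, Col11a1, Col11a2 and Col27a1 lay above it on all 9 arrays and Col1a1 on all but HS replicate 1. The cartilage gene Col2a1 and Col24a1 did not pass. Of the 8 basement membrane genes, Col4a1, Col4a2 and Col18a1 lay above it on every array and Col15a1 on all but HS replicate 1. Col4a5 and Col4a6 passed on some arrays, and Col4a3 and Col4a4, known from kidney basement membrane, did not.

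Of the 23 other collagens 12 lay above the 40th percentile on all 9 arrays. These were Col6a1 and Col6a2 of the beaded filaments, the anchoring fibril gene Col7a1, Col8a1, and the genes Col9a2, Col9a3, Col12a1, Col16a1, Col19a1 and Col20a1, whose products sit on fibril surfaces or beside them. Col23a1 and Col25a1, which encode membrane-spanning collagens, completed them. Col6a3 lay above it on all but HS replicate 1, and Col8a2, Col9a1 and Col22a1 passed on some arrays. Col6a4, Col6a5, Col10a1, Col13a1, Col14a1, Col17a1 and Col26a1 did not pass. Without HS replicate 1 Col22a1 no longer passed, which left 30 collagen genes and 47 probe sets.

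**Figure D1:**
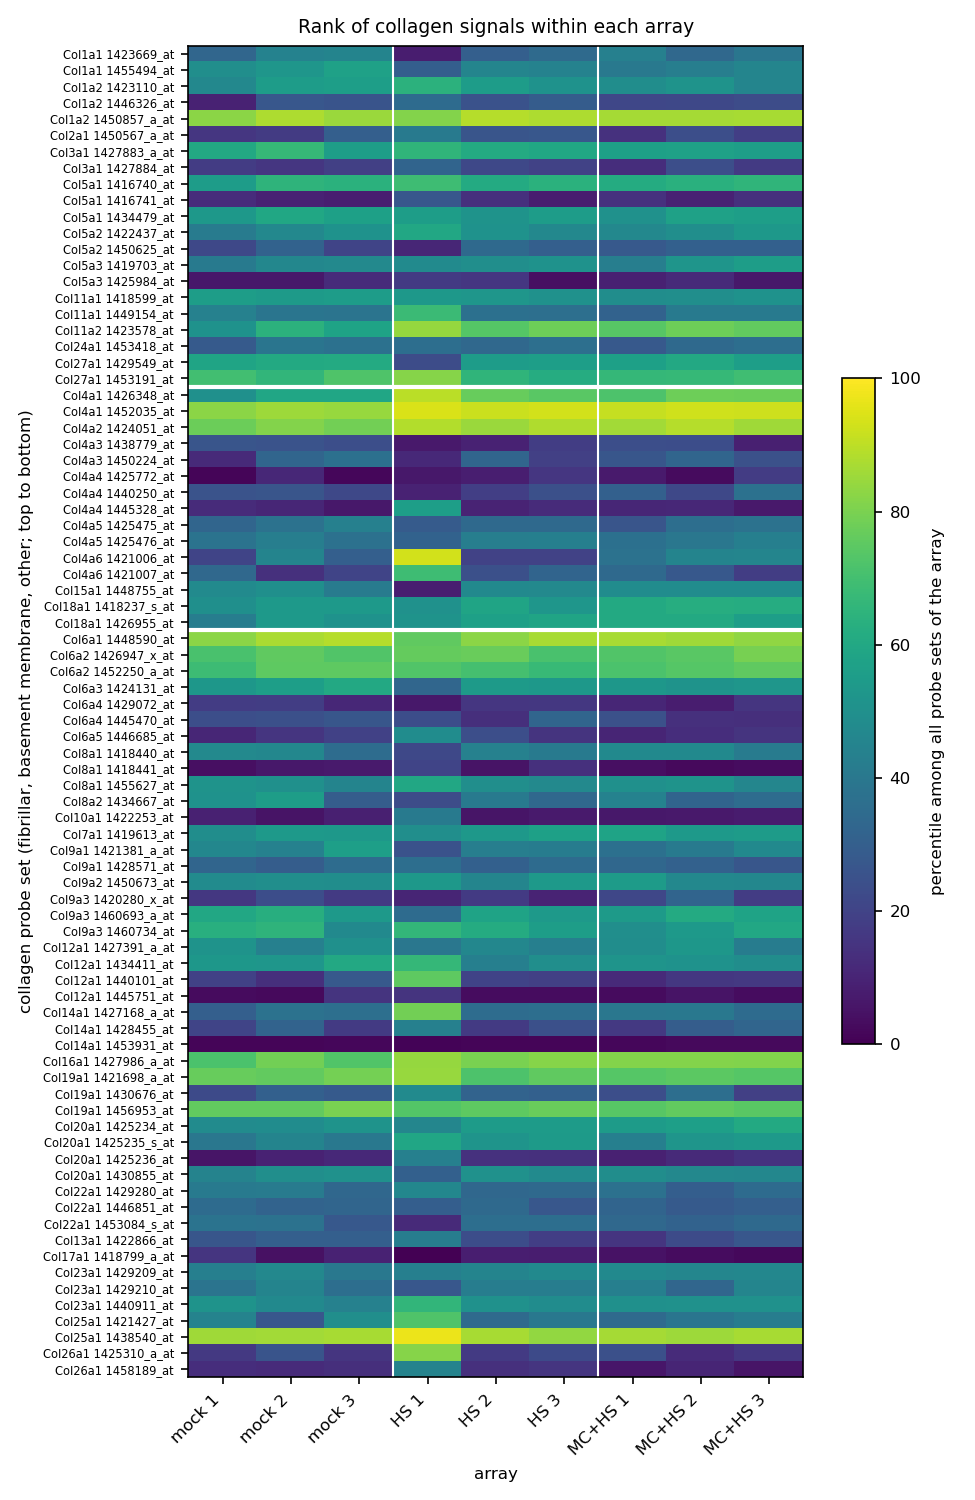
Rank of each of the 82 collagen probe sets within each of the 9 arrays, as the percentile among all probe sets of that array (colour, 0 to 100), ordered by class with fibrillar at the top and other collagens at the bottom. HS replicate 1 stands above the other 8 arrays for several probe sets, such as one of Col26a1 (81.7, against 12.4 to 26.1) and one of Col4a6 (93.2, against 19.7 to 45.4). A rank also reflects how well a probe binds, so the levels of different probe sets are not compared.

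The comparisons of HS and of MC+HS with mock asked which collagens differed after vector of each purification. They share the 3 mock arrays, so their values are set side by side and are not independent. In both, Col4a1, Col4a2 and Col11a2 were the collagen genes furthest above mock once HS replicate 1 was left out, and Col18a1 was called with them in MC+HS. With all 9 arrays, 1 of 48 measured collagen probe sets was called higher in HS, or 2.08%, against 0.747% of all probe sets tested. The same probe set of Col4a1 was called higher in MC+HS, again 1 of 48, against 0.556% of all. None was called lower in either comparison, against 0.0283% and 0.0248% of all. By the probe set that stands for each gene, 0 of 31 collagen genes were called in either direction in either comparison. Of all genes, 0.893% were called higher and 0.0375% lower in HS, and 0.690% and 0.0225% in MC+HS. At an unadjusted p under 0.05, limma gave 1 collagen gene higher and 1 lower in HS, and 5 higher and 2 lower in MC+HS. The share of all genes under that unadjusted threshold was not counted, here or below. Such counts are therefore not read as a result about collagens.

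Once HS replicate 1 was left out, 3 of 30 collagen genes were called higher in HS (10.0%, against 3.82% of all genes), namely Col4a1, Col4a2 and Col11a2. In MC+HS 4 of 30 were (13.3%, against 3.25%), with Col18a1 added to those 3. No collagen gene was called lower in either, against 0.393% and 0.431% of all genes, while 4 and 2 had an unadjusted p under 0.05 in that direction. By probe set the counts were 4 of 47 in HS (8.51%, against 2.97% of all higher and 0.357% lower) and 5 of 47 in MC+HS (10.6%, against 2.51% higher and 0.833% lower). By class, 2 of 6 basement membrane genes and 1 of 9 fibrillar genes were called in HS, and 3 of 6 and 1 of 9 in MC+HS. Of the 15 other collagens 0 were called in either, with the smallest limma adjusted p at 0.0728 and 0.0579 and 2 with an unadjusted p under 0.05 upwards in each. Collagen genes as a whole did not sit far from the rest, with a median difference of 0.04 in HS against 0.05 for all genes, and 0.08 in MC+HS against 0.01. Basement membrane genes had medians of 0.21 and 0.66, fibrillar genes 0.12 and 0.16, and the others 0.01 and 0.01.

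The calls without HS replicate 1 rest on 8 arrays, and some end when a further array is left out. Without HS replicate 3 as well, 1 collagen gene, Col4a1, was called in HS, and then a single HS array is assumed to vary like the other groups. Without mock replicate 1 as well, 2 genes, Col4a1 and Col11a2, were called in each comparison, and without MC+HS replicate 2 as well 2 were called in MC+HS. Leaving out mock replicate 2 as well gave 5 collagen genes in each. The shares of all genes called in these further fits were not counted.

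**Figure D2:**
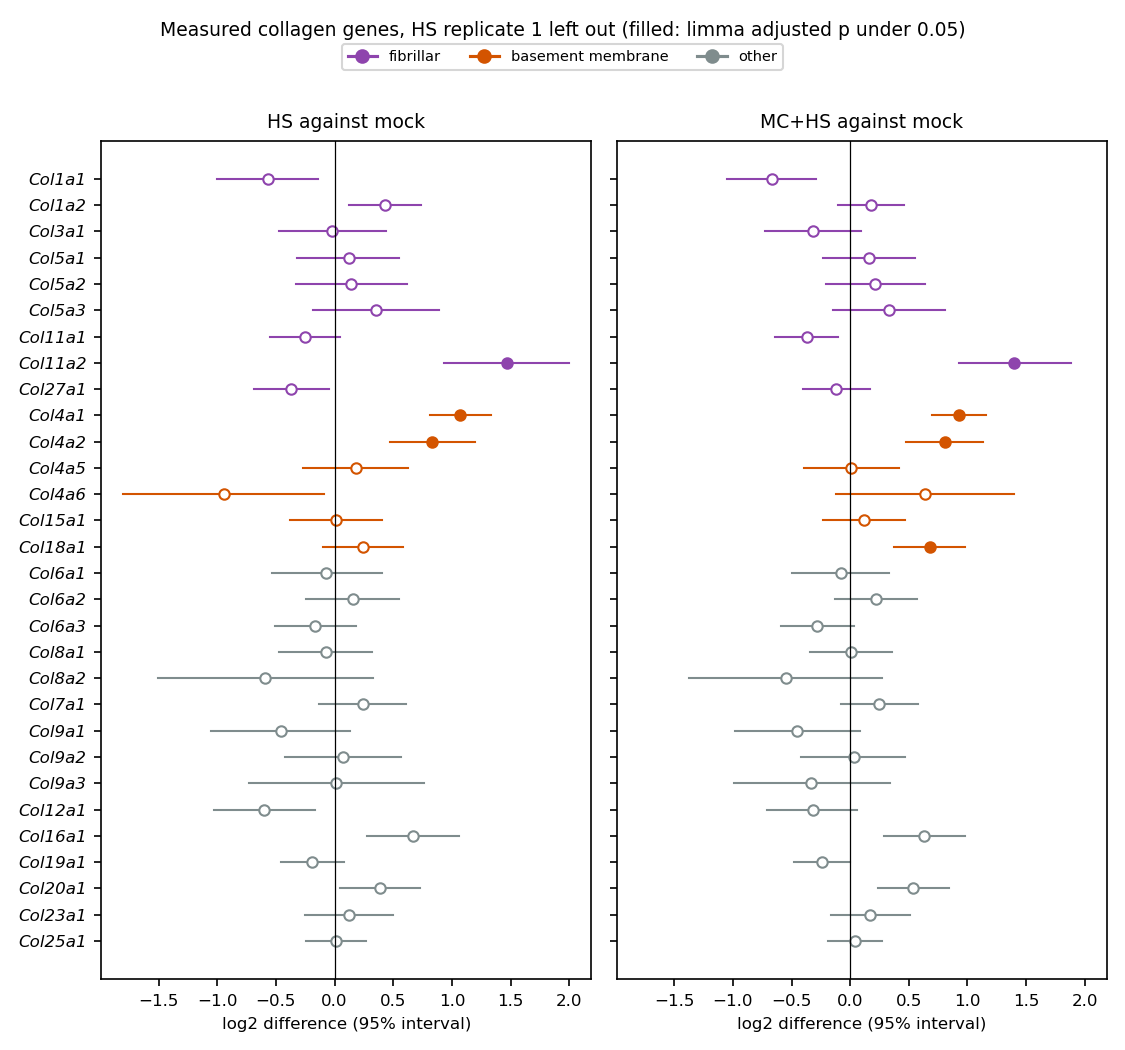
Difference from mock of each of the 30 measured collagen genes with HS replicate 1 left out, as a log2 difference with its 95% limma interval (bars), for HS (left, 2 arrays against 3) and MC+HS (right, 3 against 3), coloured by class. Filled points passed the test after adjustment, which were Col11a2, Col4a1 and Col4a2 on both sides and Col18a1 on the right. Some open points, such as Col1a1 and Col16a1, have intervals that leave out 0 before adjustment.

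Col4a1 and Col4a2 lie head to head and share a promoter region, which is shown because the chains were called together. In the RefSeq annotation of GRCm38.p6 their starts are 21 bases apart on opposite strands, and the windows from 250 bases before to 50 after each start have 78 bases in common, printed in capitals. The Col4a2 window is chr8:11312555-11312854 (plus strand) and the Col4a1 window chr8:11312777-11313076 (minus strand), each written 5′ to 3′ on its gene's strand.
Col4a2: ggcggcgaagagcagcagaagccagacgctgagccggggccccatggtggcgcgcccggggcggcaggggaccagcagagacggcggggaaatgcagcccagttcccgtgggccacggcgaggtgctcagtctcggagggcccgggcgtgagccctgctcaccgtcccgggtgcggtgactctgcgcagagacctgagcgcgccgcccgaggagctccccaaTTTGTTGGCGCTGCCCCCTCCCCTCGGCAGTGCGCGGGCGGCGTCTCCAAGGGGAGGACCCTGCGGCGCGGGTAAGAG
Col4a1: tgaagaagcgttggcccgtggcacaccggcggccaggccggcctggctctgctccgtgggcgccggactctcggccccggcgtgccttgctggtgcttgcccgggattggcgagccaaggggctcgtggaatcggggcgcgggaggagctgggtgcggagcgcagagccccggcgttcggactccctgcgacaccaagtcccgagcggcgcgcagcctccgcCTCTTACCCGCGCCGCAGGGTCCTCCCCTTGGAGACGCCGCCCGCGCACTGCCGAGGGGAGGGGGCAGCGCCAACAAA
The letters of a GC box (GGGCGG, either strand) were found 3 times in the Col4a2 window and 1 time in the Col4a1 window, and 35.7% of the 32851 RefSeq promoter windows of the same length hold them. The match in the shared capitals is 1 site counted in both windows. CCAAT was found 1 time in each (37.4% of windows) and TATAAA in neither (13.6%). The letters TTCNNNGAA, those of the site that interferon gamma signalling uses, were searched on both strands too (8.3% of windows). They were found 0 times in both windows, which says only that these letters are not within these bases. No match of one motif overlapped a match of another in the windows searched. The other head-to-head pair, Col4a5 and Col4a6 on chromosome X, has starts 1343 bases apart and windows that share 0 bases.

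Col4a1 and Col4a2 encode the chains that together form the common type IV collagen of basement membranes, among them those around brain vessels. The Col4a1 probe set called with all 9 arrays read 7.47, 8.12 and 8.08 in mock, 9.53, 9.55 and 9.38 in HS, and 9.19, 9.60 and 9.48 in MC+HS. All 6 vector arrays were above all 3 mock arrays, and HS replicate 1 lay with the others here. With all 9 arrays the difference was 1.59 ± 0.21 in HS, or 3.02-fold (limma adjusted p = 0.0114), and 1.53 ± 0.21 in MC+HS, or 2.89-fold (0.0194). On 8 arrays, without HS replicate 1, it was 1.57 ± 0.20 (adjusted p = 8.83e-04) and 1.53 ± 0.18 (6.21e-04). When any 1 of the 9 arrays was left out in turn, the HS call ended without mock replicate 1 (difference 1.39, adjusted p = 0.0558), HS replicate 2 (1.56, 0.0654) or HS replicate 3 (1.65, 0.0535). The MC+HS call ended in the same way without mock replicate 1 (1.32, 0.0977), mock replicate 3 (1.62, 0.0846) or MC+HS replicate 1, 2 or 3 (1.65, 1.44 and 1.50, with adjusted p of 0.0682, 0.135 and 0.127).

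The other Col4a1 probe set stands for the gene because its mean is higher. It read 10.07, 10.33 and 10.13 in mock, 10.16, 11.11 and 11.38 in HS, and 11.08, 11.17 and 11.06 in MC+HS. All MC+HS arrays and HS replicates 2 and 3 were above mock, while HS replicate 1 lay among the mock arrays on this scale, unlike on the probe set described first. By rank within the array it did not, with HS replicate 1 at percentile 94.4. Mock was at 82.8 to 85.4 and the other vector arrays at 91.1 to 93.0. With all 9 arrays neither difference passed the test (0.71 ± 0.32 in HS, adjusted p = 0.635, and 0.93 ± 0.32 in MC+HS, 0.630). The gene rose, once HS replicate 1 was left out, 2.10-fold in HS (1.07 ± 0.12, limma adjusted p = 4.12e-04) and 1.90-fold in MC+HS (0.93 ± 0.11, 5.89e-04).

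Col4a2 had 1 probe set, which read 9.56, 9.93 and 9.55 in mock, 9.42, 10.32 and 10.70 in HS, and 10.50, 10.68 and 10.28 in MC+HS. HS replicate 1 was the lowest of the 9 arrays on this scale, and the other vector arrays were all above mock. By rank within the array HS replicate 1 was at percentile 88.5, with mock at 77.5 to 81.4 and the other vector arrays at 85.1 to 89.0. The differences with all 9 arrays were 0.47 ± 0.33 in HS (adjusted p = 0.635) and 0.81 ± 0.33 in MC+HS (0.915). Col4a2 rose, without HS replicate 1, 1.78-fold in HS (0.83 ± 0.16, limma adjusted p = 0.0181) and 1.75-fold in MC+HS (0.81 ± 0.15, 0.0115). Those calls ended when a further array was left out, in HS with mock replicate 1 (0.77, adjusted p = 0.0681), mock replicate 3 (0.77, 0.0523) or HS replicate 3 (0.64, 0.294), and in MC+HS with mock replicate 1 (0.75, 0.056) or MC+HS replicate 2 (0.71, 0.063).

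**Figure D3:**
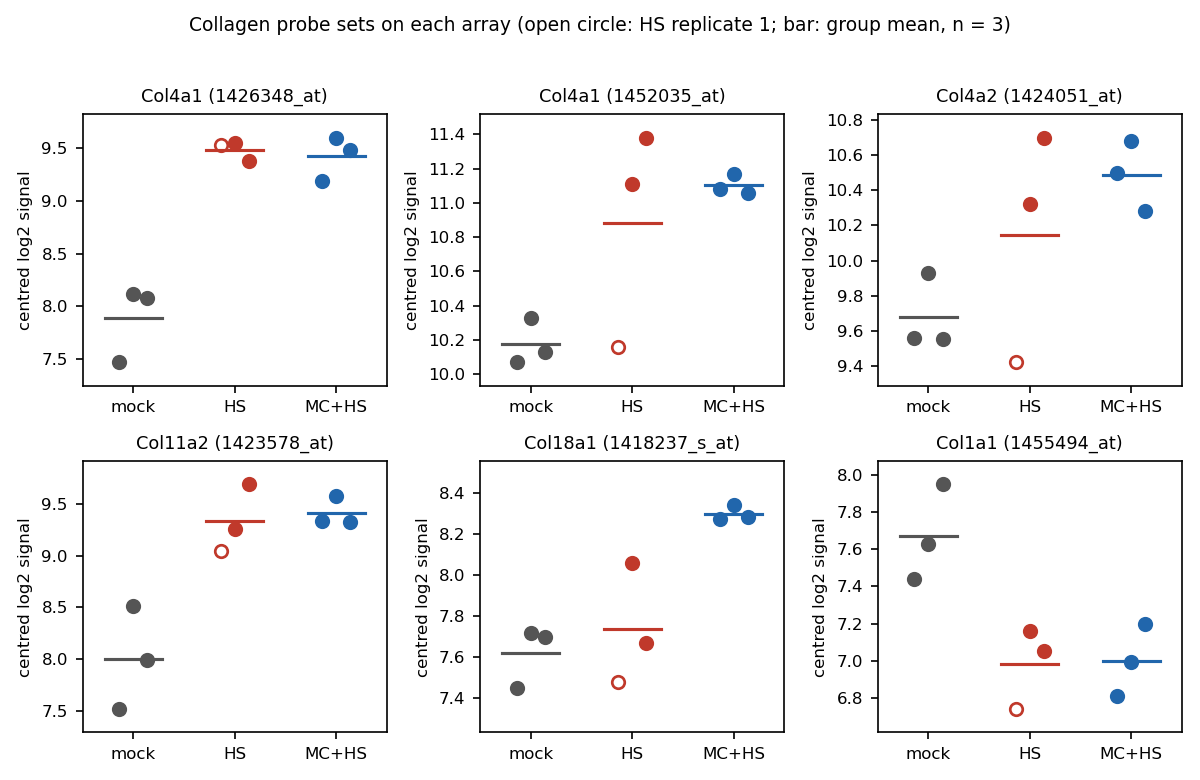
Centred log2 signal of 6 collagen probe sets on each array (points, with a bar at the group mean, n = 3, and HS replicate 1 as an open circle). Vector arrays sit above mock for the Col4a1 probe set called with all 9 arrays (first panel, 9.19 to 9.60 against 7.47 to 8.12) and Col11a2, and the Col1a1 vector arrays lie below mock. On this scale HS replicate 1 drops to the mock level for the other Col4a1 probe set (second panel) and Col4a2. By rank within the array it does not, at percentiles 94.4 and 88.5, against at most 85.4 and 81.4 in mock.

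Col18a1 encodes the collagen of basement membrane zones whose end fragment is endostatin. The probe set that stands for it read 7.45, 7.72 and 7.70 in mock, 7.48, 8.06 and 7.67 in HS, and 8.27, 8.34 and 8.28 in MC+HS. The MC+HS arrays were above every mock and HS array, and HS overlapped mock. In MC+HS the difference was 0.68 ± 0.17 with all 9 arrays (limma adjusted p = 0.226), and without HS replicate 1 Col18a1 rose 1.60-fold (0.68 ± 0.14, 0.0219). That call ended when mock replicate 1, MC+HS replicate 2 or MC+HS replicate 3 was left out as well (0.59, 0.65 and 0.68, with adjusted p of 0.0914, 0.0914 and 0.0719). In HS the difference was 0.12 ± 0.17 with all 9 arrays (adjusted p = 0.741) and 0.24 ± 0.15 without HS replicate 1 (0.537). Its other probe set read 6.97, 7.73 and 7.53 in mock, 7.52, 7.97 and 8.09 in HS, and 8.25, 8.22 and 7.87 in MC+HS. On it MC+HS was above mock and overlapped HS, and neither difference passed the test without HS replicate 1 (0.62 ± 0.21 in HS, adjusted p = 0.198, and 0.70 ± 0.19 in MC+HS, 0.0865) or with all 9 arrays (0.45 ± 0.23, 0.635, and 0.70 ± 0.23, 0.578).

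The remaining basement membrane genes showed no call. Col15a1, whose product is a relative of collagen XVIII, read 7.32, 7.46 and 6.97 in mock, 5.52, 7.28 and 7.24 in HS, and 7.36, 7.37 and 7.38 in MC+HS. Apart from HS replicate 1 its arrays lay together, with differences of 0.01 ± 0.18 in HS and 0.12 ± 0.16 in MC+HS without that array, against -0.57 ± 0.42 and 0.12 ± 0.42 with it. Col4a6 read 5.63, 7.13 and 6.30 in mock, 9.96, 5.45 and 5.37 in HS, and 6.63, 7.15 and 7.19 in MC+HS. Its HS mean rests on replicate 1, which read far above every other array, and the sign of the HS difference turned from 0.58 ± 1.07 to -0.94 ± 0.39 without it (limma adjusted p = 0.292). In MC+HS it differed by 0.64 ± 1.07 with all 9 arrays and by 0.64 ± 0.35 without that array (0.457). Col4a5 differed by 0.12 ± 0.19 in HS and 0.01 ± 0.19 in MC+HS with all 9 arrays, and by 0.18 ± 0.20 and 0.01 ± 0.18 without HS replicate 1.

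Among the fibrillar collagens Col11a2, a chain of collagen XI known from cartilage and the inner ear, had the largest difference. It read 7.52, 8.51 and 7.99 in mock, 9.05, 9.26 and 9.69 in HS, and 9.34, 9.58 and 9.33 in MC+HS. All 6 vector arrays were above all mock arrays. With all 9 arrays the differences were 1.32 ± 0.27 in HS, or 2.50-fold (limma adjusted p = 0.0829), and 1.40 ± 0.27 in MC+HS, or 2.65-fold (0.0727), so neither passed the test. Col11a2 rose, without HS replicate 1, 2.76-fold in HS (1.47 ± 0.24, adjusted p = 0.00565) and by 1.40 ± 0.22 in MC+HS (0.00390). The HS call ended when HS replicate 3 was left out as well (1.25, adjusted p = 0.118). Differences of the other sign were seen for its partner chain Col11a1, with 7.87, 7.78 and 7.81 in mock, 7.58, 7.64 and 7.50 in HS, and 7.39, 7.44 and 7.53 in MC+HS. On this probe set, which stands for Col11a1, all vector arrays were below mock, but the differences of -0.25 ± 0.12 and -0.37 ± 0.12 did not pass the test with all 9 arrays (adjusted p = 0.635 and 0.580), nor did -0.25 ± 0.14 and -0.37 ± 0.12 without HS replicate 1 (0.467 and 0.172). The other Col11a1 probe set read 7.07, 6.72 and 6.78 in mock, 8.16, 6.58 and 6.53 in HS, and 6.26, 6.87 and 6.95 in MC+HS. On it both vector groups overlapped mock, with differences of 0.23 ± 0.42 and -0.17 ± 0.42 on all 9 arrays. Without HS replicate 1 they were -0.31 ± 0.25 and -0.17 ± 0.22.

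The promoter window of Col11a2 is shown because this gene was called and its partner chain was not. It is chr17:34038888-34039187 (plus strand) in RefSeq's GRCm38.p6, with the 2 GC box matches in capitals.
Col11a2: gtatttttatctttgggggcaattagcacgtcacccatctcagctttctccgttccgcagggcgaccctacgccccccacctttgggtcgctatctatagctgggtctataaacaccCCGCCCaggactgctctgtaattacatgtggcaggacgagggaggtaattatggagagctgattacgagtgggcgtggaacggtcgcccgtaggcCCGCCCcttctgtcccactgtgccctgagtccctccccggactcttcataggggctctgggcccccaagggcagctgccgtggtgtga
The window holds TATAAA 1 time and CCAAT 0 times. TTCNNNGAA was found 0 times.

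Col1a1 and Col1a2 encode the chains of type I collagen, the main collagen of scar and bone. Col1a1 read 7.44, 7.63 and 7.95 in mock, 6.74, 7.16 and 7.05 in HS, and 6.81, 6.99 and 7.20 in MC+HS. All vector arrays were below all mock arrays, yet the differences of -0.69 ± 0.20 in HS (limma adjusted p = 0.311) and -0.67 ± 0.20 in MC+HS (0.398) did not pass the test. Leaving out HS replicate 1 gave -0.57 ± 0.19 (0.189) and -0.67 ± 0.17 (0.0716). The other Col1a1 probe set read 6.40, 7.08 and 7.17 in mock, 5.48, 6.17 and 6.39 in HS, and 7.01, 6.44 and 6.82 in MC+HS. On it all HS arrays were below mock, HS replicate 3 by a narrow margin, and MC+HS lay within the mock range. Its differences were -0.87 ± 0.32 in HS (adjusted p = 0.582) and -0.13 ± 0.32 in MC+HS (1.0), and without HS replicate 1 they were -0.61 ± 0.28 (0.358) and -0.13 ± 0.25 (0.878). Col1a2 read 10.05, 10.56 and 10.17 in mock, 8.86, 10.72 and 10.66 in HS, and 10.54, 10.41 and 10.39 in MC+HS. On this probe set, which stands for Col1a2, HS replicate 1 was the lowest and HS replicates 2 and 3 the highest arrays. The differences were -0.18 ± 0.46 and 0.18 ± 0.46 with all 9 arrays, and leaving out HS replicate 1 they were 0.43 ± 0.14 in HS (adjusted p = 0.177) and 0.18 ± 0.13 in MC+HS (0.582). On the other measured Col1a2 probe set HS replicate 1 was the highest array (8.01), and both vector groups overlapped mock. Its differences were 0.15 ± 0.21 and -0.26 ± 0.21 with all 9 arrays, and 0.04 ± 0.21 and -0.26 ± 0.19 without HS replicate 1.

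Collagen III and collagen V run in the same fibrils as collagen I. Col3a1 read 8.20, 8.70 and 7.84 in mock, 8.06, 8.27 and 8.19 in HS, and 7.97, 7.95 and 7.86 in MC+HS, and both vector groups lay within the mock range. Its differences were -0.07 ± 0.21 in HS and -0.32 ± 0.21 in MC+HS with all 9 arrays, and -0.02 ± 0.21 and -0.32 ± 0.18 without HS replicate 1. On the 8 arrays left without HS replicate 1, Col5a1 differed by 0.12 ± 0.20 in HS and 0.16 ± 0.18 in MC+HS, Col5a2 by 0.14 ± 0.21 and 0.21 ± 0.19, and Col5a3 by 0.35 ± 0.24 and 0.33 ± 0.22. The HS differences of Col5a1, Col5a2 and Col5a3 were 0.05 ± 0.20, 0.30 ± 0.22 and 0.32 ± 0.23 with all 9 arrays. The other measured Col5a1 probe set had the other sign, with -0.19 ± 0.18 in HS and -0.13 ± 0.16 in MC+HS without HS replicate 1. None of these passed the test. Col27a1, a fibrillar collagen of cartilage, differed by -0.37 ± 0.14 in HS (adjusted p = 0.258) and -0.12 ± 0.13 in MC+HS (0.767) without HS replicate 1, and by -0.24 ± 0.18 and -0.12 ± 0.18 with it.

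Of the other collagens, Col16a1 had the smallest adjusted p without HS replicate 1, and Col20a1 had it with all 9 arrays. Col16a1 encodes a collagen that sits beside fibrils, and its signals were 9.07, 9.67 and 9.08 in mock, 9.05, 9.83 and 10.07 in HS, and 10.01, 9.92 and 9.79 in MC+HS. MC+HS was above mock, and HS replicate 1 lay just below it. The differences were 0.37 ± 0.30 and 0.63 ± 0.30 with all 9 arrays (limma adjusted p = 0.635 and 1.0). Without HS replicate 1 they were 0.67 ± 0.18 in HS (limma adjusted p = 0.0728) and 0.63 ± 0.16 in MC+HS (0.0579). Col20a1, a relative of it, read 7.37, 7.37 and 7.56 in mock, 7.32, 7.80 and 7.84 in HS, and 7.83, 7.89 and 8.19 in MC+HS, with differences of 0.22 ± 0.18 and 0.54 ± 0.18 on all 9 arrays (adjusted p = 0.635 and 0.584), and 0.39 ± 0.15 (adjusted p = 0.267) and 0.54 ± 0.14 (0.0645) without HS replicate 1. Another Col20a1 probe set read 6.81, 7.13 and 6.89 in mock, 7.81, 7.60 and 7.80 in HS, and 7.0, 7.62 and 7.73 in MC+HS. On it all HS arrays were above mock and MC+HS overlapped mock. Its differences were 0.80 ± 0.21 in HS (limma adjusted p = 0.245) and 0.51 ± 0.21 in MC+HS (0.931) with all 9 arrays, and 0.76 ± 0.23 (0.121) and 0.51 ± 0.20 (0.271) without HS replicate 1, so none passed the test. The third measured Col20a1 probe set differed by -0.16 ± 0.21 and -0.07 ± 0.21 with all 9 arrays, and by 0.05 ± 0.17 and -0.07 ± 0.15 without HS replicate 1. Col12a1, which links fibrils to other matrix, differed by -0.60 ± 0.20 in HS (0.167) and -0.32 ± 0.17 in MC+HS (0.455) without HS replicate 1, and by -0.31 ± 0.27 (0.637) and -0.32 ± 0.27 (1.0) with it. The other measured Col12a1 probe set differed by -0.27 ± 0.23 and -0.01 ± 0.21 without HS replicate 1, and on it MC+HS overlapped mock.

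Col6a1, a chain of the beaded filaments that surround many cells, showed how far 1 array can move a collagen. It read 10.04, 10.52 and 10.60 in mock, 8.53, 10.07 and 10.58 in HS, and 10.57, 10.32 and 10.02 in MC+HS. Apart from HS replicate 1 the groups overlapped, and the HS difference of -0.66 ± 0.48 (limma adjusted p = 0.635) became -0.07 ± 0.21 without that array. In MC+HS it was -0.08 ± 0.48 with and -0.08 ± 0.19 without it. Its partners Col6a2 and Col6a3 differed by 0.16 ± 0.18 and -0.17 ± 0.16 in HS without HS replicate 1, and by 0.22 ± 0.16 and -0.28 ± 0.14 in MC+HS. In HS the differences were -0.10 ± 0.27 for Col6a2, of the other sign, and -0.46 ± 0.25 for Col6a3 with all 9 arrays. The other measured Col6a2 probe set differed by -0.27 ± 0.16 in HS and 0.06 ± 0.14 in MC+HS without HS replicate 1. Col25a1, a membrane collagen of neurons found in amyloid plaques, was nearly level, with 10.36, 10.42 and 10.36 in mock, 10.73, 10.54 and 10.25 in HS, and 10.55, 10.30 and 10.41 in MC+HS. Its differences were 0.13 ± 0.22 in HS and 0.04 ± 0.22 in MC+HS with all 9 arrays, and 0.01 ± 0.12 and 0.04 ± 0.11 on the 8. Col19a1, another collagen made by neurons, differed by -0.27 ± 0.17 and -0.24 ± 0.17 with all 9 arrays and by -0.19 ± 0.12 and -0.24 ± 0.11 without HS replicate 1, and none of these passed the test. On its other measured probe set the differences without HS replicate 1 were 0.00 ± 0.12 in HS and -0.19 ± 0.11 in MC+HS.

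Col8a2 and Col9a3 varied within the mock group more than between groups. Col8a2 read 7.52, 7.85 and 6.25 in mock, 6.46, 6.88 and 6.35 in HS, and 7.07, 6.34 and 6.57 in MC+HS, and Col9a3 read 8.40, 8.57 and 7.30 in mock, 8.09, 8.31 and 7.89 in HS, and 7.43, 7.71 and 8.15 in MC+HS. Mock replicate 3 was the lowest of the 9 arrays on both of these probe sets. On the other measured Col9a3 probe set HS replicate 1 was the lowest (6.93). There mock replicate 3 read 7.71, near HS replicate 3 (7.75) and MC+HS replicate 1 (7.79). On mock replicate 3 Ttr, which encodes the transthyretin of choroid plexus epithelium, read 9.31 against 13.52 and 13.56 on the other mock arrays. The summed signal of the choroid plexus list, of which 2 of 8 genes lay above the 40th percentile on all 9 arrays, ran from 1550 to 14975 in mock, 2768 to 9456 in HS and 6672 to 10549 in MC+HS. Its part in the Col8a2 and Col9a3 values was not tested.

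Counts of genes whose groups did not overlap, over all 9 arrays and by the probe set that stands for each gene, do not depend on a test. In MC+HS 7 of 31 collagen genes had all arrays above mock (22.6%, against 11.0% of all genes), which were Col4a1, Col4a2, Col7a1, Col11a2, Col16a1, Col18a1 and Col20a1. The 5 with all arrays below (16.1%, against 7.37%) were Col1a1, Col6a3, Col11a1, Col12a1 and Col19a1. In HS 2 lay above (6.45%, against 4.82%), Col5a3 and Col11a2, and 3 below (9.68%, against 9.19%), Col1a1, Col9a1 and Col11a1. The HS shares were near those of all genes. Without HS replicate 1, where 2 HS arrays face 3, 7 of 30 lay above mock in HS (23.3%, against 26.0% of all genes), and 6 of 30 below, against 11.6% of all. In MC+HS the same genes as before lay above and below, 7 of 30 (23.3%, against 11.0%) and 5 of 30 (16.7%, against 7.35%).

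The spread within groups sets how small a difference could be seen. The median SD of a collagen gene was 0.24 in mock, 0.30 in HS and 0.17 in MC+HS, against 0.13, 0.52 and 0.15 for all measured genes. Without its replicate 1 the HS median was 0.17, against 0.09 for all genes. For basement membrane genes it was 0.65 in HS with replicate 1 and 0.12 without.

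MC+HS against HS asked whether the purification mattered for collagen RNA when the vector was the same. No collagen gene or probe set was called in either direction with all 9 arrays, where 0% of all genes and probe sets were, and the smallest limma adjusted p of a collagen was 0.728. At an unadjusted p under 0.05, 1 gene and 3 probe sets were higher and 0 lower. With HS replicate 1 left out, 0 of 30 collagen genes were called, against 0.00756% of all genes higher and 0% lower (by probe set 0 of 47, against 0.00357% and 0%), with the smallest adjusted p at 0.352 and 2 genes higher at an unadjusted p under 0.05. For all 31 collagen genes the median difference was 0.08, against 0.23 for all genes, and without HS replicate 1 it was -0.01.

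Col15a1 had the largest difference between the purifications with all 9 arrays, 0.69 ± 0.42 (limma adjusted p = 0.728), which was 0.11 ± 0.18 without HS replicate 1. Without that array Col4a6 had the largest, 1.58 ± 0.39 higher in MC+HS (95% interval 0.73 to 2.44, adjusted p = 0.352), against 0.07 ± 1.07 with it. Its HS replicates 2 and 3 lay at percentiles 19.7 and 19.8 and MC+HS replicate 1 at 37.6, all below the 40th, so this difference rests on dim signals. Among the genes above the 40th percentile on all 9 arrays, the 3 largest with all arrays were those of Col6a1, Col18a1 and Col1a2. For Col6a1 and Col1a2 the differences of 0.58 and 0.37 with all 9 arrays became -0.02 and -0.24 without HS replicate 1. Col18a1 was 0.56 ± 0.17 higher in MC+HS (95% interval 0.18 to 0.94, limma adjusted p = 0.728), and 0.43 (0.09 to 0.77, adjusted p = 0.567) without HS replicate 1. None of these passed the test after adjustment. All 3 MC+HS arrays of Col18a1 and Col15a1 were above all HS arrays, or 2 of 31 genes (6.45%, against 4.67% of all), and Col3a1 lay below (1 of 31, 3.23%, against 1.58%). Without HS replicate 1, 4 of 30 lay above (13.3%, against 6.49%) and 3 below (10.0%, against 15.8%).

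For the 3 collagen genes called against mock in both vector groups, the estimates of the difference between purifications lay between -0.14 and -0.02, while Col18a1, called in MC+HS, had the 0.43 above. On 8 arrays, without HS replicate 1, the MC+HS minus HS difference was -0.14 for the probe set that stands for Col4a1 (95% interval -0.40 to 0.12), -0.04 for the other Col4a1 probe set (-0.48 to 0.39), -0.02 for Col4a2 (-0.39 to 0.34) and -0.06 for Col11a2 (-0.60 to 0.47). A missed threshold does not show that the purifications act alike, and each of these intervals leaves room for a difference in either direction, up to its limits.

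Genes that work on or with collagen were counted from fixed lists. Without HS replicate 1, 3.82% of all genes were called higher in HS and 3.25% in MC+HS, and 0.393% and 0.431% lower. With all 9 arrays 0.893% and 0.690% were called higher, and 0.0375% and 0.0225% lower. Beside those shares, 1 call in a list does not set the list apart. Of 16 measured genes that modify and fold collagen in the endoplasmic reticulum, 0 were called with all 9 arrays in any comparison, and without HS replicate 1 Serpinh1 alone was called, higher in HS. Serpinh1 encodes the collagen chaperone HSP47 and read 9.52, 9.62 and 8.72 in mock, 8.20, 10.28 and 10.35 in HS, and 9.88, 9.93 and 9.67 in MC+HS. It was lowest on HS replicate 1, as was the summed signal of its list (5316, against 16418 to 19347 in mock), and above mock on the other vector arrays. Without that array it rose by 1.03 ± 0.22 in HS (limma adjusted p = 0.0306), and the MC+HS difference of 0.54 ± 0.20 did not pass (0.229). Of 7 measured genes for trimming and cross-linking of procollagen, among them the lysyl oxidase family, 0 were called in any comparison with or without HS replicate 1.

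Of 8 measured collagen receptors, Itga1 alone was called. It encodes the integrin chain alpha 1, which binds collagens I and IV, and read 6.24, 6.30 and 6.0 in mock, 7.50, 7.08 and 7.28 in HS, and 7.22, 7.04 and 6.94 in MC+HS. All vector arrays were above mock. It was measured only through the vector arrays, since the mock arrays lay below the 40th percentile. Its calls are therefore partly a matter of how it came to be tested, and are not read as support. Itga1 rose by 1.11 ± 0.19 in HS with all 9 arrays (limma adjusted p = 0.0356), while the MC+HS difference of 0.88 ± 0.19 did not pass (0.111). It rose in both without HS replicate 1, by 1.0 ± 0.20 (0.0203) and 0.88 ± 0.18 (0.0226).

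Among genes whose products join collagen IV in basement membranes (laminins, nidogens, perlecan and others), 0 of 14 measured were called with all 9 arrays. When HS replicate 1 was left out, 1 of 13 was, in HS. It was Nid1, which encodes the linker of laminin and collagen IV and read 7.88, 8.14 and 7.57 in mock, 8.24, 8.71 and 9.05 in HS, and 8.26, 8.94 and 8.31 in MC+HS. All its vector arrays were above mock. Nid1 rose, on those 8 arrays, by 1.01 ± 0.23 in HS (limma adjusted p = 0.0354), and its MC+HS difference was 0.64 ± 0.20 (0.149). Of 10 genes of transforming growth factor beta, a signal that drives collagen production in many tissues, 0 were called with all 9 arrays. The receptor gene Tgfbr2, without HS replicate 1, rose in HS (0.89 ± 0.12, 0.00163) and MC+HS (0.69 ± 0.11, 0.00472), and Tgfbr1 fell in MC+HS (-0.48 ± 0.10, 0.0275).

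**Figure D4:**
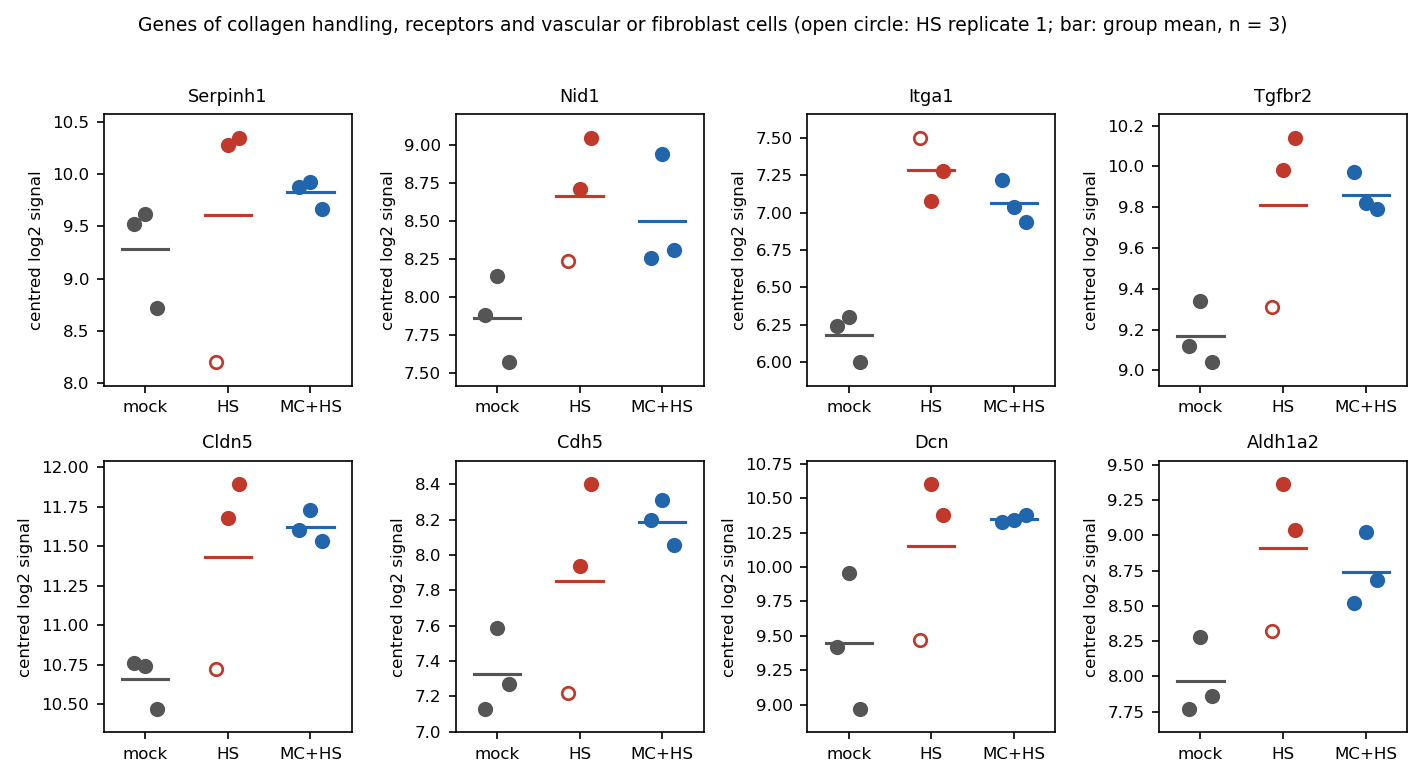
Centred log2 signal on each array (points, bar at the group mean, n = 3, HS replicate 1 open) of 8 genes of collagen handling, receptors, growth factor signalling and vascular or fibroblast cells. HS replicates 2 and 3 and the MC+HS arrays are above mock in all 8 panels. On this scale HS replicate 1 drops to the mock range or below in Serpinh1, Tgfbr2, Cldn5, Cdh5 and Dcn. All 8 genes were called higher in a vector group without HS replicate 1, and genes called lower, such as Igf2, are not shown. Itga1 was measured only through the vector arrays, where it is high.

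Endothelial cells are among those that make type IV collagen, and some of their markers rose too. In bulk tissue, a change in the number of cells of a type and a change in RNA per cell cannot be told apart. Of 8 measured endothelial markers 0 were called with all 9 arrays. Without HS replicate 1, 3 of the 8 rose in both vector groups, where 3.82% (HS) and 3.25% (MC+HS) of all genes were called higher. These were Cldn5, a tight junction gene (1.13 ± 0.12 in HS, limma adjusted p = 3.46e-04, and 0.96 ± 0.11 in MC+HS, 5.36e-04), Esam (0.80 and 0.75) and Cdh5, the VE-cadherin gene (0.84 and 0.86). The list's median difference was 0.76 in HS and 0.65 in MC+HS without that array. Its summed signal ran from 3931 to 4488 in mock, was 3629, 6921 and 8166 in HS, and ran from 6427 to 7288 in MC+HS. HS replicate 1 lay below the mock arrays in this sum, and the other vector arrays lay above. That array lay below mock in the sum of every list except choroid plexus, so its low place is not particular to endothelium. For astrocytes it was 7821, against 23875 to 25386 in mock. Ranks within the array went both ways. On HS replicate 1 Cldn5 was at percentile 97.0, against 87.8 to 89.2 in mock, and Cdh5 at 43.0, against 44.6 to 51.8. Of the 8 endothelial markers Tie1 was not above the 40th percentile on all 9 arrays.

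Fibroblast markers were called in both directions, and no mural marker was called. Of 9 measured markers of leptomeningeal and perivascular fibroblasts 0 were called with all 9 arrays. Without HS replicate 1, Aldh1a2 (1.23 ± 0.19, limma adjusted p = 0.00398) and Dcn, the collagen-binding proteoglycan decorin (1.04 ± 0.22, 0.0259), rose in HS and Igf2 fell (-0.87 ± 0.15, 0.00852). In MC+HS Dcn (0.90 ± 0.20, 0.0321) and Aldh1a2 (0.77 ± 0.17, 0.0350) rose, and the Igf2 difference of -0.54 ± 0.14 did not pass (0.0608). The list's median difference without HS replicate 1 was below 0 in both, at -0.22 in HS and -0.33 in MC+HS. The summed signal ran from 3863 to 5003 in mock, 3183 to 4878 in HS and 4346 to 4703 in MC+HS, so these ranges overlapped. Of that list Dpt, Lum, Slc22a6 and Slc47a1 were not above the 40th percentile on all 9 arrays. Of 8 measured pericyte and smooth muscle markers 0 were called with or without HS replicate 1, and their sum ran from 8051 to 8972 in mock, 4739 to 8719 in HS and 7117 to 8968 in MC+HS. Of 5 astrocyte markers 0 were called with all 9 arrays, and without HS replicate 1 Aldh1l1 (0.72 ± 0.15, limma adjusted p = 0.0229) and Aqp4 (0.55 ± 0.13, 0.0436) rose in HS and Aldh1l1 in MC+HS (0.61 ± 0.13, 0.0322). Of 4 microglial markers P2ry12 fell in MC+HS with all 9 arrays (-1.0 ± 0.16, 0.0351) and in both vector groups without HS replicate 1. None of the 5 measured choroid plexus, 5 oligodendrocyte, 5 striatal neuron and 4 cortical neuron markers was called with all 9 arrays, nor were those measured without HS replicate 1. The part of these cell markers in the collagen values was not tested.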

How the data were processed

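RNA from tissue around the injection sites of 9 mice was hybridized to 1 array each, labelled as biological replicates. The authors deposited linear intensity values, which came from GCOS 1.4.0.036 according to the submitters' processing notes. The summarisation and scaling are not given in the sources used here. Signals were turned into log2(signal + 16), so folds of dim genes are understated, and arrays were centred on the median of the 9 medians. The 64 control probe sets were left out. A probe set was tested if above the 40th percentile of its array on at least 3 arrays. Groups were compared with limma 3.58.1 (lmFit, eBayes with an intensity trend, statmod 1.5.0) in R 4.3.3 on all 9 arrays in 1 fit, two-sided, with Benjamini-Hochberg adjustment over all tested probe sets, in 3 comparisons. The number of arrays limits the precision. The scripts were tested on simulated data.

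Genes were named by a rule. It took every collagen above the 40th percentile on all 9 arrays by class, and gave array values for genes called with or without HS replicate 1 and for the 3 largest differences per comparison. From 14 lists with 131 entries it took called genes, at most 4 per list by p. Other collagens with values, counts of separated groups without HS replicate 1, and Ttr, Tie1 and Col10a1, were chosen after their values were seen. The collagens, the lists and HS replicate 1 as the array to leave out were chosen with earlier results of these data known. Probe sets ending in _s_at, _x_at or _a_at can bind several transcripts. Promoter windows are RefSeq's (33 of 42 genes matched), read with Python 3.11.15. Alternatives covered pseudocount, filter, normalization, prior, array weights, arrays in the fit, the probe set standing for a gene, the replicate number and each array. Most same-numbered arrays did not deviate together, but pairing by number was not excluded.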

Additional observations from a re-analysis of the deposited data

How the results depend on the processing

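With all 9 arrays, quantile normalization gave 1 collagen gene called in HS and 0 probe sets in MC+HS, and no centring gave 0 probe sets in MC+HS. Array quality weights, whose estimation stopped before its tolerance, gave 14 genes and 20 probe sets in HS, 7 and 10 in MC+HS, and 4 and 5 in MC+HS against HS. Fits of only the 6 arrays compared gave 0 probe sets in HS, and 4 genes and 5 probe sets in MC+HS. The probe set of highest variance gave 1 gene in each. Leaving out 1 array in turn gave 0 to 3 genes and 0 to 4 probe sets in HS, and 0 to 4 genes and 0 to 5 probe sets in MC+HS. Apart from the fit without HS replicate 1, the shares of all genes called under these alternatives and those below were not counted. A larger count of collagens there may therefore go with more calls among all genes.

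Over 21 alternatives the Col4a1 probe set called with all 9 arrays (Col4a1 a, with the probe set that stands for the gene as Col4a1 b) kept its direction in both vector comparisons, with adjusted p of 6.79e-07 to 0.0947 in HS (called in 16) and 5.42e-05 to 0.279 in MC+HS (called in 14). Of the 17 alternatives run on 8 arrays, which were added after the data were seen, both Col4a1 probe sets were called in 17 in each comparison, Col11a2 in 16 (HS) and 17 (MC+HS), Col4a2 in 14 and 15, and Col18a1 in 13 (MC+HS). In that family no centring gave 7 genes and 10 probe sets in HS, and leaving out a further array gave 1 to 5 genes and 2 to 6 probe sets in HS and 2 to 5 genes and 3 to 7 probe sets in MC+HS.

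Signs turned mostly in MC+HS against HS, where no named collagen's value was called with all 9 arrays. Quantile normalization gave -0.16 (Col4a1 b), -0.01 (Col4a2) and -0.24 (Col11a2). No centring gave -0.06 (Col4a1 b), -0.19 (Col11a2), -0.02 (Col18a1, its other probe set) and -0.25 (Col1a1). Array weights gave -0.11 (Col1a1). Leaving out 1 array in turn gave -0.15 (without MC+HS replicate 2) to 0.05 (without MC+HS replicate 1) for Col4a1 a and -0.02 (without HS replicate 1) to 1.01 (without HS replicate 3) for Col6a1. For Col4a1 b, Col4a2 and Col11a2 it gave -0.14, -0.02 and -0.06 without HS replicate 1 to 0.47, 0.62 and 0.26 without HS replicate 3, and for Col1a1 -0.10 without HS replicate 1 to 0.12 without MC+HS replicate 1, with -0.08 without MC+HS replicate 3. Against mock it gave -0.04 (without HS replicate 2) to 0.24 (without HS replicate 1) for Col18a1 in HS and -0.26 (without mock replicate 1) to 0.06 (without MC+HS replicate 3) for Col6a1 in MC+HS, with 0.02 without mock replicate 3. The causes were not tested.

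Same-numbered arrays correlated in their deviations at -0.17 to 0.29, over 0.1 in 2 of 9 pairs, and different-numbered arrays at -0.32 to 0.16. Those 2 pairs joined mock and MC+HS arrays (0.26 for replicate 1 and 0.29 for replicate 3). Pairing of the mice by number was therefore neither shown nor excluded. With the replicate number as a block 0 genes were called in each comparison and 1, 1 and 0 probe sets, and without HS replicate 1 it was 3, 6 and 0 genes and 4, 7 and 0 probe sets. The linear signals carry no detection calls, so a dim collagen could not be told from background.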
